A study of Mus musculus with 6 samples.

Results

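The genes described here are those of the T cell receptor complex and its coreceptors, Cd3d, Cd3e, Cd3g, Cd247, Cd4, Cd8a, Cd8b1, Lck, Cd28 and Cd2. They were taken by gene name from a table of 33965 genes, and all 10 were present. RNA-seq was performed on bulk tissue of 6 tumors of MC38, a mouse colon carcinoma line, grown under the skin of C57BL/6 mice that carried no stated allele. The PBS group held 3 tumors of mice given PBS (phosphate-buffered saline), and the GB2 group held 3 tumors of mice given GB2, a prodrug built from the STING agonist MSA-2 and artesunate. The study's methods give female mice aged 6 weeks at purchase and a GB2 dose of 10 mg/kg for the MC38 model, but neither the dose nor the time of collection for the sequenced tumors. All 6 tumors derive from 1 transplanted line, and the labels do not state that the 3 tumors of a group came from separate animals, so the p-values measure the spread between these samples. The comparison asks how GB2 altered the transcriptome of the tumor, and here whether the T cell receptor genes took part.

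The T cell receptor recognises peptide on MHC through its alpha and beta (or gamma and delta) chains, which cannot signal by themselves. The CD3 gamma, delta and epsilon chains and the CD3 zeta chain encoded by Cd247 carry the signalling motifs, the coreceptors CD4 and CD8 bind MHC class II and class I and bring in the kinase LCK, and CD28 and CD2 add signals from ligands on the presenting cell. In a solid tumor these transcripts are used as a measure of infiltrating T cells, with CD8 marking cytotoxic and CD4 helper and regulatory T cells.

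Transcripts of the T cell receptor complex were at low levels in all 6 tumors, and among those with enough counts to test no difference between GB2 and PBS tumors exceeded the spread within the groups. Of these 8 genes, 0 passed a fold change limit of 2 together with a Benjamini-Hochberg adjusted p limit of 0.05 in the quasi-likelihood test of edgeR. In that test 0 had an unadjusted p below 0.05, and 0 were called by DESeq2 or by limma-voom. Limma on the deposited levels per transcript length tested 6 of the 8 and called 0. Over all 19602 genes tested, edgeR called 0, or 0%, and DESeq2 called 1.97%. An unadjusted p below 0.05 was reached by 6.94% in edgeR, or 4.66% with the fold change limit. The fitted log2 fold change, GB2 minus PBS, was above 0 for 2 of the 8 genes (Cd4 and Lck) and below 0 for 6. Of all genes tested, 48.3% were above 0. The median was -0.42 against -0.02 over all genes tested. The tally depended on single tumors. With PBS tumor 2 left out, 7 of the 10 genes then tested were above 0 and 3 below. With GB2 tumor 1 left out, 6 of 9 were above 0 and 3 below. The first of these fits also tested Cd247 and Cd28, the second Cd247. These passed the count minimum only through their GB2 tumors, so their place above 0 was set by the filter. Of the 8 genes, Cd3d, Cd3g, Cd4, Cd8a and Lck were above 0 in the first fit. In the second these were Cd3d, Cd3g, Cd4, Lck and Cd2. Leaving out any other tumor kept more genes below 0 than above. In bulk tissue, the number of T cells and the RNA per T cell cannot be told apart.

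The libraries held 64764405 to 69878156 counts in the PBS tumors and 81210553 to 83690056 in the GB2 tumors. The counts are those deposited, in which a read pair was taken to weigh about 4 counts. A value below 12 counts, or 3 read pairs, was treated as below the detection floor, which corresponded to 0.141 to 0.203 CPM (counts scaled to a common library size, with TMM factors). Floors and counting intervals cover counting error only. Of the 60 values of the 10 genes, 10 were 0 and 23 (38.3%) lay below the floor. They were not spread evenly, as 8 of the 10 genes lay below the floor in PBS tumor 3 and 7 in GB2 tumor 1, but 2 each in PBS tumors 1 and 2, 4 in GB2 tumor 2 and 0 in GB2 tumor 3. PBS tumor 3 thus stood apart, with 7 genes at 0. With it left out, the log2 fold changes of the tested genes were -0.92 for Cd3d, -2.35 for Cd3e, -0.88 for Cd3g, -0.22 for Cd4, -1.16 for Cd8a, -2.25 for Cd8b1, 0.38 for Lck and -1.09 for Cd2, with adjusted p of 0.455 or more (edgeR). Leaving out PBS tumor 2 instead turned Cd3d (0.74), Cd3g (0.46) and Cd8a (0.996). Leaving out GB2 tumor 1 turned Cd3d (0.11), Cd3g (0.29) and Cd2 (0.08). The others of the 8 genes kept their direction in these 2 fits.

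**Figure D1:**
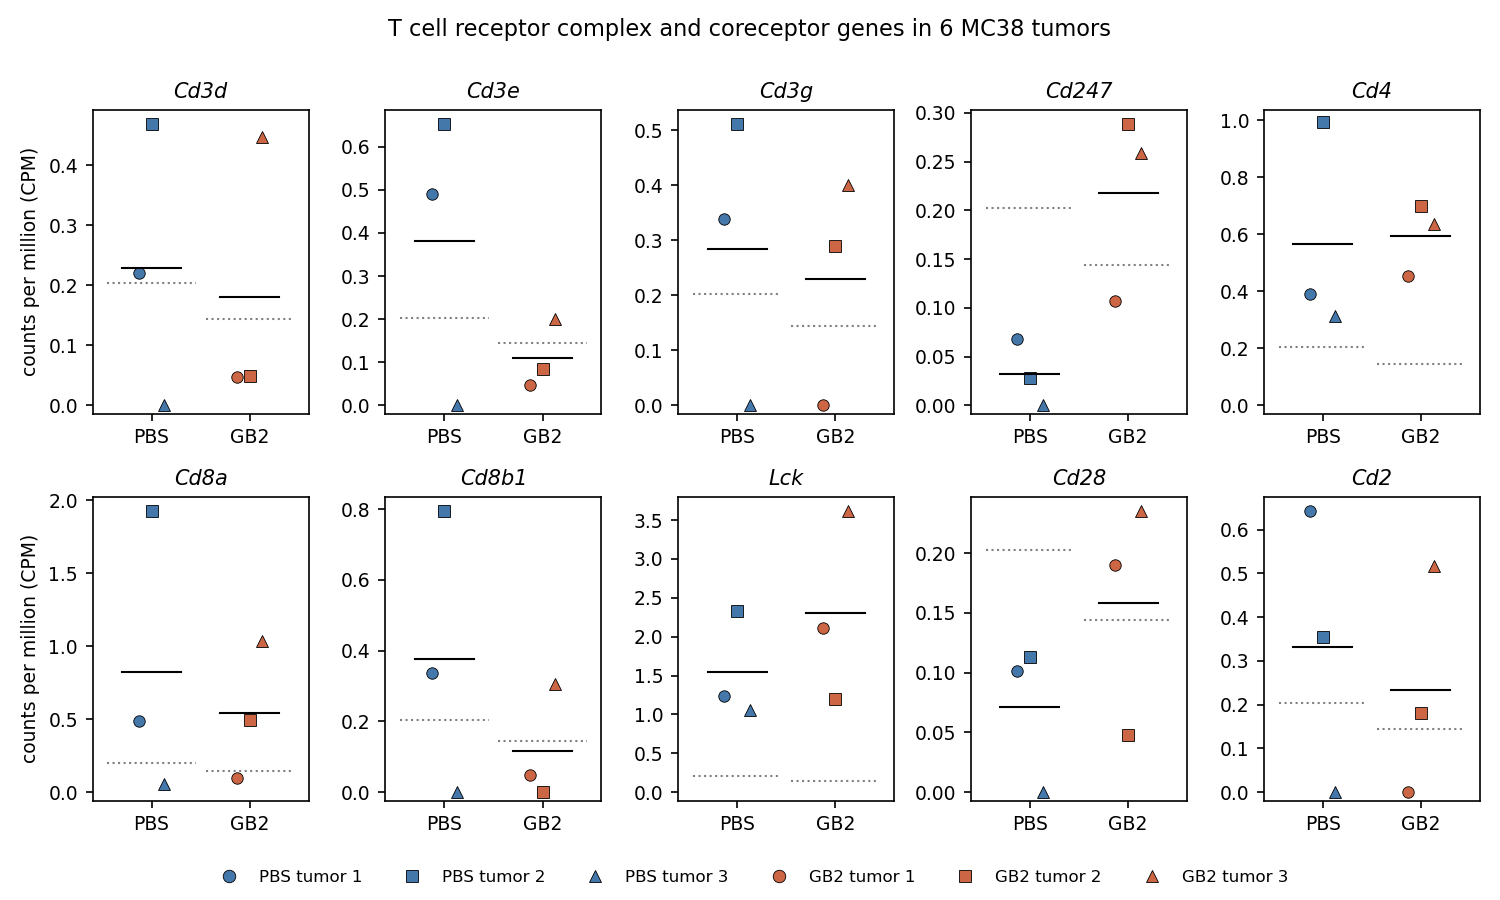
CPM of the 10 genes in each tumor, with PBS tumors in blue and GB2 tumors in orange, symbols for the tumor number, black bars for the group mean and dotted lines for the highest detection floor of a group. Each panel has its own axis; only in the panel of Cd247 do all 3 GB2 tumors lie above all 3 PBS tumors, and the 3 PBS values there lie below the floor.

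Per transcript length, Lck was the most abundant of the 10 genes. Its level was 0.624 ± 0.341 FPKM (the deposited level per transcript length and library total, SD, n = 6), from 0.343 to 1.21 FPKM, and it exceeded every other gene in all 6 tumors. Cd8a followed at 0.177 ± 0.187 FPKM, then Cd8b1 at 0.156 ± 0.198, Cd2 at 0.148 ± 0.138, Cd4 at 0.137 ± 0.0611 and Cd3d at 0.106 ± 0.112 FPKM. The lowest levels were those of Cd3g (0.0727 ± 0.0611 FPKM), Cd3e (0.0540 ± 0.0589), Cd247 (0.0218 ± 0.0211) and Cd28 (0.0179 ± 0.0142). From Cd8a downwards, no neighbours in this order differed by more than the SD of their difference over the 6 tumors, and each was above the next in only 2 to 4 tumors. Of the 31840 genes with an FPKM above 0 in any tumor, 57.3% had a lower mean FPKM than Lck and 20.9% a lower one than Cd28.

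**Figure D2:**
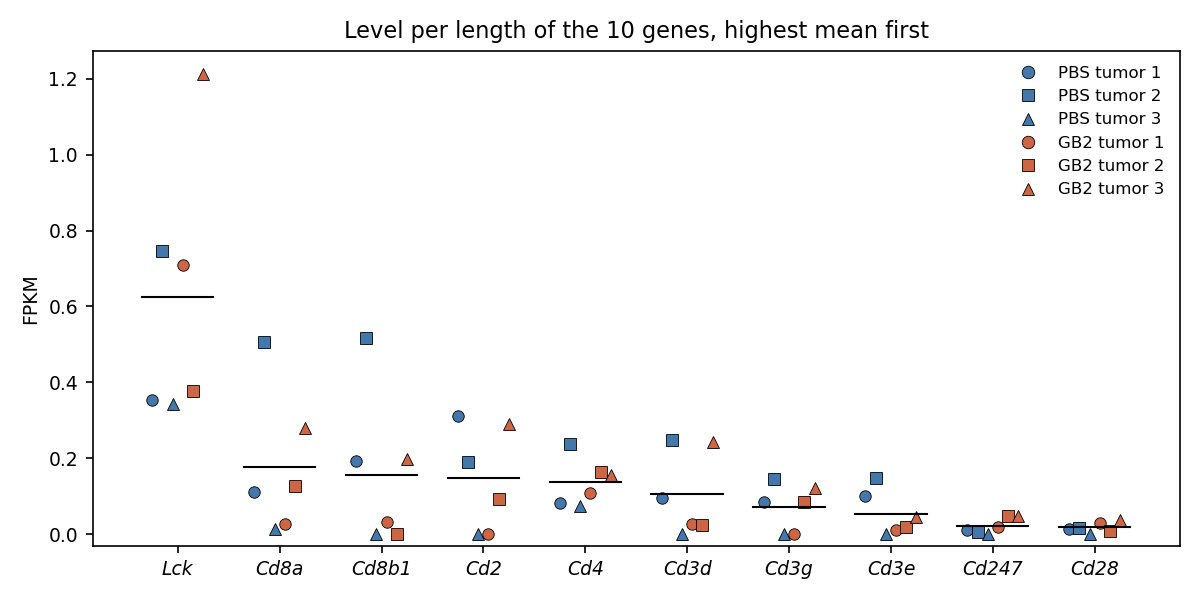
FPKM of the 10 genes in each tumor, ordered by the mean over 6 tumors (black bars), with PBS tumors in blue and GB2 tumors in orange. Lck lies highest, at a mean of 0.624 FPKM, and the other 9 genes overlap with their neighbours.

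The genes of the CD3 gamma, delta and epsilon chains lie together on chromosome 9. By the positions of the deposited table, Cd3g (ENSMUSG00000002033) lies at chr9:44880870-44891729 on the minus strand, Cd3d (ENSMUSG00000032094) at chr9:44893084-44898637 on the plus strand and Cd3e (ENSMUSG00000032093) at chr9:44910038-44920920 on the minus strand. Cd3g and Cd3d thus start back to back, with 1354 bases between them, and 11400 bases separate Cd3d from Cd3e. The labels list mm10, but 0 of the 10 genes have the start and end of the GENCODE M21 annotation of GRCm38, so the build of these positions is not given in the sources used here. The 250 bases before each start, from RefSeq on GRCm38.p6, are shown because the 3 genes varied together across the tumors. The 5 motifs searched on both strands were TATAAA (the TATA box), TGTGGT (bound by RUNX factors), AGGAAG (ETS factors), AGATAA (bound by GATA factors) and CAGGTG (an E-box). In this order they occur in 12.4%, 14%, 29.5%, 9.99% and 17.2% of 32851 windows of this kind. Each window is written 5′ to 3′ on the strand of the gene, capitals mark matches on either strand, and no matches share bases.
Cd3g, chr9:44980432-44980681, minus strand: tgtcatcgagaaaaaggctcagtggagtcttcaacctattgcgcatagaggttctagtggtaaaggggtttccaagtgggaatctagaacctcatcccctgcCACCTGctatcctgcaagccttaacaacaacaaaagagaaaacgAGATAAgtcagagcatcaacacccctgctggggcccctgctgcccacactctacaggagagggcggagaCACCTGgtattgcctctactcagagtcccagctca
Cd3d, chr9:44981536-44981785, plus strand: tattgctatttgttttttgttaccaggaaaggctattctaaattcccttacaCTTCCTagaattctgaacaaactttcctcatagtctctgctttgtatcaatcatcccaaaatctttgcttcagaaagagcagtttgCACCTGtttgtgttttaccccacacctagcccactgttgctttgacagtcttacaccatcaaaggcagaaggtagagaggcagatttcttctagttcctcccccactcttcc
Cd3e, chr9:45009612-45009861, minus strand: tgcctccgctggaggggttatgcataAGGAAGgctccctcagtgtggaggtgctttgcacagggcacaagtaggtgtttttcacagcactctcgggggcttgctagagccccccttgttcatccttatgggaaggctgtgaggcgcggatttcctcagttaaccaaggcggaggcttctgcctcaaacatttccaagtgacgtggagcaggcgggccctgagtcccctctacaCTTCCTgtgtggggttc
Cd3g held AGATAA starting 104 bases before the start and the E-box on the opposite strand at 148 and 35 bases. Cd3d held the ETS motif at 198 bases and the E-box at 112 bases, both on the opposite strand, and Cd3e held the ETS motif at 224 bases and, on the opposite strand, at 17 bases. The letters of the TATA box and of the RUNX motif were in none of these 3 windows.

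Cd3e, whose product pairs with both the gamma and the delta chain, had 29, 46 and 0 counts in PBS tumors 1, 2 and 3 against 4, 7 and 17 counts in GB2 tumors 1, 2 and 3. It was high in PBS tumors 1 and 2 and at 0 in PBS tumor 3, so the groups overlapped. The level was 0.381 ± 0.340 CPM (SD, n = 3) in PBS and 0.111 ± 0.0795 CPM (SD, n = 3) in the GB2 tumors. edgeR fitted a log2 fold change of -1.77 (standard error 1.32, 95% interval -4.85 to 1.32, adjusted p = 0.792). Summed over the tumors, about 19 read pairs in PBS and 7 in the GB2 tumors gave a ratio of 0.293, with an exact interval of 0.104 to 0.727 that covers counting error only. With PBS tumor 3, the 1 PBS tumor that overlapped, left out, the log2 fold change was -2.35 with an unadjusted p of 0.0217 (edgeR, adjusted p = 0.455). The groups then lay apart by that choice, which also set the larger fold change and the smaller p. Without PBS tumor 3, 14.7% of all genes tested lay apart with GB2 lower, and 5.25% had an unadjusted p below 0.05 in that direction. With PBS tumor 2 left out instead, the log2 fold change of Cd3e was -1.12 (edgeR, unadjusted p of 0.511, adjusted p = 0.872).

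Cd3d, the delta chain, had 13, 33 and 0 counts in the PBS tumors against 4, 4 and 38 counts in the GB2 tumors. PBS tumor 2 and GB2 tumor 3 were alike at the top, at 0.468 and 0.447 CPM, while the other 4 tumors had 0.220 CPM or less. Cd3g, the gamma chain, had 20, 36 and 0 counts in PBS and 0, 24 and 34 counts in the GB2 tumors. Each group thus held a tumor without detected Cd3g beside tumors with 0.289 to 0.511 CPM. The log2 fold changes were -0.34 for Cd3d (95% interval -3.64 to 2.96) and -0.30 for Cd3g (-3.89 to 3.29), with adjusted p of 0.953 and 0.962 (edgeR). These intervals leave room for several-fold changes in either direction.

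Cd247 (ENSMUSG00000005763, chr1:165616250-165698722, plus strand), which encodes the zeta chain with most of the signalling motifs of the complex, went the other way. It had 4, 2 and 0 counts in the PBS tumors against 9, 24 and 22 counts in the GB2 tumors, or 0.0320 ± 0.0340 CPM (SD, n = 3) against 0.218 ± 0.0973 CPM (SD, n = 3). It was the only one of the 10 genes whose groups did not overlap, where 15.3% of all genes tested had groups apart in either direction and 8.61% were apart with GB2 higher. All 3 PBS values and that of GB2 tumor 1 lay below the floor, and the gene did not reach the count minimum for the test. About 2 read pairs in PBS and 14 in the GB2 tumors gave a ratio of 5.56, with an exact counting interval of 1.28 to 50.4. Fitted without the count minimum, the log2 fold change was 2.75 (95% interval -0.09 to 5.59, edgeR, unadjusted p of 0.0562, adjusted p = 0.669). Of all genes so fitted, 5.22% had an unadjusted p below 0.05. Cd247 overlaps Pou2f1 on the opposite strand, which had 1193 to 2183 counts in PBS and 2830 to 2948 in the GB2 tumors. The libraries were stranded, but the strand setting of the counting is not given in the sources used here, so reads of Pou2f1 assigned to Cd247 cannot be told apart from its own.

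The sum of the 4 CD3 genes was 66, 117 and 0 counts in the PBS tumors against 17, 59 and 111 counts in the GB2 tumors. This is 0.925 ± 0.846 CPM (SD, n = 3) in PBS and 0.739 ± 0.552 CPM (SD, n = 3) in the GB2 tumors, so the spread within each group was close to the mean. Set against Ptprc, which encodes the pan-leukocyte antigen CD45, there were 22.1, 34.2 and 0 CD3 counts per 100 Ptprc counts in the PBS tumors against 3.54, 10.02 and 9.73 in the GB2 tumors. The 3 GB2 values lay between PBS tumor 3 and PBS tumor 1. Ptprc itself had 299, 342 and 109 counts in PBS and 480, 589 and 1141 in the GB2 tumors, groups that did not overlap, with a log2 fold change of 1.20 (edgeR, standard error 0.52, adjusted p = 0.725).

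The CD8 genes varied widely between tumors of the same group. Cd8a (ENSMUSG00000053977, chr6:71350411-71356153) and Cd8b1 (ENSMUSG00000053044, chr6:71299772-71314478), which encode the alpha and beta chains of CD8, lie on the plus strand with 35932 bases between them. Cd8a had 29, 136 and 4 counts in the PBS tumors against 8, 41 and 88 counts in the GB2 tumors. PBS tumor 2 was the highest at 1.93 CPM, followed by GB2 tumor 3 at 1.04 CPM, and PBS tumor 3 the lowest at 0.0566 CPM. Cd8b1 had 20, 56 and 0 counts in PBS and 4, 0 and 26 counts in the GB2 tumors, and PBS tumor 2 was again the highest. The group levels of Cd8a were 0.826 ± 0.981 CPM (SD, n = 3) in PBS and 0.541 ± 0.472 CPM (SD, n = 3) in the GB2 tumors, and those of Cd8b1 were 0.378 ± 0.399 and 0.118 ± 0.165 CPM (SD, n = 3 each). The log2 fold changes were -0.61 for Cd8a (95% interval -3.33 to 2.11) and -1.66 for Cd8b1 (-5.51 to 2.18), with adjusted p of 0.905 and 0.825 (edgeR). The direction for Cd8a rested on PBS tumor 2, without which its log2 fold change was 0.996.

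Cd4 (ENSMUSG00000023274, chr6:124841655-124865184, minus strand) was detected above the floor in every tumor, with 23, 70 and 22 counts in PBS and 38, 58 and 54 counts in the GB2 tumors. The GB2 tumors lay close together, at 0.595 ± 0.127 CPM (SD, n = 3), inside the range of the PBS tumors, at 0.565 ± 0.373 CPM (SD, n = 3). Its fitted log2 fold change was 0.07 (standard error 0.56, 95% interval -1.24 to 1.39, edgeR adjusted p = 0.975). CD4 is also made by some macrophages and dendritic cells. The summed macrophage markers were at 64.2 to 89.2 CPM in PBS and 255 to 352 CPM in the GB2 tumors, and their part in the Cd4 level was not tested.

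The balance of the coreceptors was read as the log2 CPM of Cd8a minus that of Cd4 in each tumor. It was 0.32, 0.94 and -2.02 in the PBS tumors against -1.98, -0.48 and 0.68 in the GB2 tumors. It lay above 0 in PBS tumors 1 and 2 and GB2 tumor 3, so both groups held values of either sign. The values of PBS tumor 3 and GB2 tumor 1 rest on Cd8a below the floor, at 4 and 8 counts. CPM are not scaled to gene length, so these values compare tumors and not the levels of the 2 genes. The means were -0.26 ± 1.56 (SD, n = 3) in PBS and -0.59 ± 1.33 (SD, n = 3) in the GB2 tumors, a difference of -0.33 (exact two-sided permutation test, p = 0.8, where 0.1 is the smallest p that 3 against 3 tumors allow). The difference became 0.26 with PBS tumor 2 left out and 0.36 with GB2 tumor 1 left out.

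Lck (ENSMUSG00000000409, chr4:129442137-129467434, minus strand), the kinase that phosphorylates the CD3 chains, had 73, 164 and 75 counts in the PBS tumors against 177, 100 and 308 counts in the GB2 tumors. GB2 tumor 3 was the highest at 3.62 CPM, but PBS tumor 2 at 2.33 CPM exceeded GB2 tumors 1 and 2, so the groups overlapped. The level was 1.54 ± 0.687 CPM (SD, n = 3) in PBS and 2.31 ± 1.22 CPM (SD, n = 3) in the GB2 tumors. edgeR fitted a log2 fold change of 0.58 (standard error 0.51, 95% interval -0.59 to 1.76, adjusted p = 0.809). The counting interval of the summed ratio, 1.12 to 1.98 around 1.49, excludes 1 but leaves out the spread between tumors. Lck did not fall to 0 where the CD3 genes did, as PBS tumor 3 held 75 Lck counts and 0 CD3 counts. Per CD3 count there were 1.11 and 1.40 Lck counts in PBS tumors 1 and 2, and this ratio was 10.4, 1.69 and 2.77 in GB2 tumors 1, 2 and 3. PBS tumor 3 has no finite ratio, and that of GB2 tumor 1 rests on 17 CD3 counts, each CD3 gene there lying below the floor. RefSeq gives Lck 2 start sites on GRCm38.p6, and both windows are shown because Lck departed from the CD3 genes across the tumors, with capitals as above.
Lck distal start, chr4:129573642-129573891, minus strand: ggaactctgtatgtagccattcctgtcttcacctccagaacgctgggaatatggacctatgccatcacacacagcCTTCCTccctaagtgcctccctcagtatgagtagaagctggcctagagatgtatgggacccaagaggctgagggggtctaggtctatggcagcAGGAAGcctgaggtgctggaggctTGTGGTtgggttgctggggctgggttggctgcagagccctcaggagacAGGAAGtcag
Lck proximal start, chr4:129558373-129558622, minus strand: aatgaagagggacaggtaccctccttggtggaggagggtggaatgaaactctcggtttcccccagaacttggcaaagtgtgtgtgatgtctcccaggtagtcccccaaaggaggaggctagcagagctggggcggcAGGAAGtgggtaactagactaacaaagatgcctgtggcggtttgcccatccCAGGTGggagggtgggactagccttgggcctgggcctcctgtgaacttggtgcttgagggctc
The window of the distal start held TGTGGT at 58 bases before the start and the ETS motif at 82 and 10 bases and, on the opposite strand, at 175 bases. That of the proximal start held the ETS motif at 114 bases and the E-box at 63 bases.

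Cd28 (ENSMUSG00000026012, chr1:60755959-60812518, plus strand), the main costimulatory receptor of naive T cells, was near the limit of detection. It had 6, 8 and 0 counts in PBS and 16, 4 and 20 counts in the GB2 tumors. GB2 tumors 1 and 3 exceeded the floor and the other 4 tumors did not. The gene was below the count minimum for the test, and about 4 read pairs in PBS and 10 in the GB2 tumors gave a ratio of 1.99 with an exact counting interval of 0.573 to 8.67. Fitted without the count minimum, its log2 fold change was 1.14 (95% interval -1.91 to 4.18, edgeR, adjusted p = 0.793). Cd2 (ENSMUSG00000027863, chr3:101183215-101195255, minus strand), an adhesion receptor of T and NK cells, had 38, 25 and 0 counts in PBS and 0, 15 and 44 counts in the GB2 tumors. Each group held 1 tumor at 0, PBS tumor 3 and GB2 tumor 1, the same tumors that lacked Cd3g. The log2 fold change of Cd2 was -0.50, with a 95% interval of -4.19 to 3.18 (edgeR, adjusted p = 0.939).

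**Figure D3:**
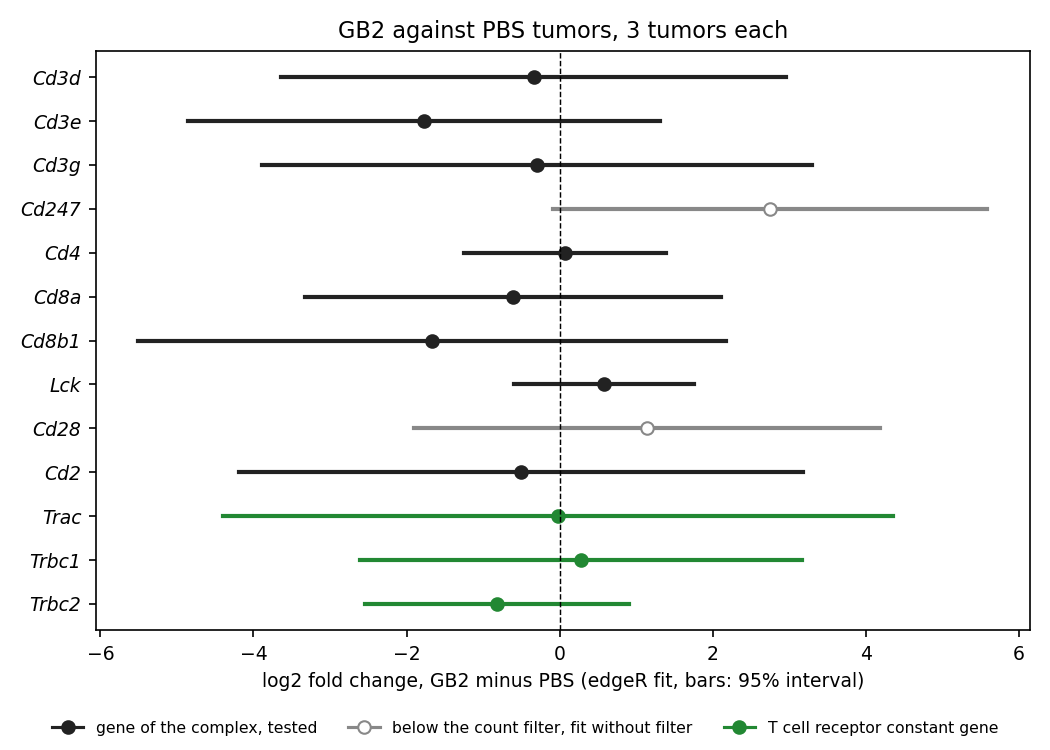
Log2 fold changes, GB2 minus PBS, from edgeR with 95% intervals for the 10 genes and 3 T cell receptor constant genes, 3 tumors per group; open grey symbols mark Cd247 and Cd28, fitted without the count minimum. Every interval includes 0, from the narrowest among the tested genes of the complex, that of Lck (-0.59 to 1.76), to that of Cd8b1 (-5.51 to 2.18).

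The constant genes of the antigen-binding chains were as uneven. In sum, Trac, Trbc1, Trbc2 and Trdc had 1.50, 2.13 and 0.198 CPM in the PBS tumors against 0.453, 0.697 and 1.82 CPM in the GB2 tumors. PBS tumors 1 and 2 and GB2 tumor 3 were again the highest, and PBS tumor 3 the lowest. The means were 1.28 ± 0.985 CPM (SD, n = 3) in PBS and 0.991 ± 0.731 CPM (SD, n = 3) in the GB2 tumors. Trbc2 had 54, 66 and 14 counts in PBS and 16, 25 and 57 in the GB2 tumors, with a log2 fold change of -0.81 (edgeR, standard error 0.74, adjusted p = 0.813). The log2 fold changes of Trac and Trbc1 were -0.02 and 0.28, and 0 of the 3 constant genes tested had an unadjusted p below 0.05 in edgeR. Trbc1 and Trbc2 are near-identical copies whose shared reads the counting may have split, so their single values are uncertain. Of the gamma chain constant genes, Trgc4 had 0 counts in every tumor, and Trgc2 reached 35 counts in PBS tumor 2 and 14 in GB2 tumor 3 and was 0 in the other 4 tumors. Trgc1 had 0, 4 and 0 counts in PBS and 10, 8 and 0 in the GB2 tumors, all below the floor.

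The 10 genes were compared by how their levels varied from tumor to tumor. For Cd3d, Cd3e, Cd3g, Cd8a, Cd8b1 and Cd2, Pearson's r of log2 CPM over the 6 tumors ran from 0.655 to 0.966 in 15 pairs of genes, with a median of 0.876. The highest was that of Cd3g with Cd2. In the other 30 pairs it ran from -0.01 to 0.840, with a median of 0.496. These 6 genes were grouped after their correlations were seen and are not a separate class, as Cd4 with Cd8a, at 0.840, exceeded Cd3g with Cd8b1, at 0.655. Lck reached 0.313 to 0.813 with the other 9 genes, and Cd247 -0.01 to 0.598. These are descriptions over 6 points that share library, depth and tissue, and values at 0 counts contribute to them.

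**Figure D4:**
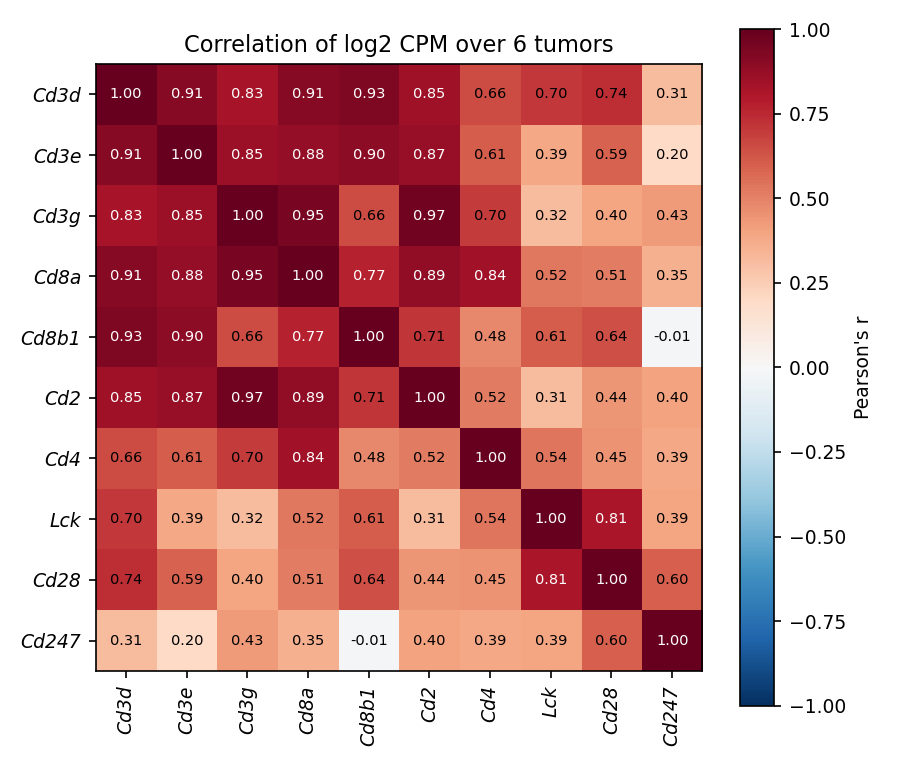
Pearson's r of log2 CPM over 6 tumors for each pair of the 10 genes, with the colour scale from -1 to 1. The block of Cd3d, Cd3e, Cd3g, Cd8a, Cd8b1 and Cd2 holds values from 0.655 to 0.966, and the column of Cd247 ends at 0.598.

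Averaged over the 8 tested genes and centred on the 6 tumors, the log2 CPM was 0.81, 1.61 and -2.05 in PBS tumors 1, 2 and 3 against -1.24, -0.30 and 1.16 in GB2 tumors 1, 2 and 3. The order of the tumors was thus PBS 2, GB2 3, PBS 1, GB2 2, GB2 1 and PBS 3, so the 3 GB2 tumors lay between the highest and the lowest PBS tumor. Among 14245 other genes with a mean of at least 1 CPM, the 10 with the most similar pattern over the 6 tumors were Chrnb2, Cd74, H2-M3, Sp110, H2-T10, H2-Eb1, H2-Q6, Sik1, Psmb9 and Actb, with r from 0.967 to 0.990. Cd74, the invariant chain of MHC class II, had 60.7, 112 and 10.2 CPM in the PBS tumors against 17.0, 43.1 and 64.4 CPM in the GB2 tumors. H2-Eb1, an MHC class II beta chain, had 14.6, 24.1 and 1.30 CPM in PBS and 4.14, 10.04 and 20.7 CPM in the GB2 tumors. Psmb9, an immunoproteasome subunit, had 23.4, 28.0 and 0.721 CPM in PBS and 2.98, 11.0 and 31.4 CPM in the GB2 tumors. These 3 genes were chosen for this likeness, so the shared order of the tumors is no separate result.

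Around the receptor, the proximal signalling genes were described as a list of 34 kinases, adaptors and regulators, of which 28 were tested. Their fitted log2 fold changes were above 0 in 18 and below 0 in 10, with a median of 0.20, and edgeR called 0. Vav1, a guanine nucleotide exchange factor of haematopoietic cells, and Lcp2, which encodes the adaptor SLP-76, were the 2 with an unadjusted p below 0.05, both with GB2 higher. Of all genes tested, 4.69% had such a p with GB2 higher and 2.24% with GB2 lower. Vav1 had 38, 75 and 63 counts in PBS and 212, 217 and 469 in the GB2 tumors, with a log2 fold change of 2.03 (edgeR, standard error 0.43, adjusted p = 0.243). Lcp2 had 74, 139 and 49 counts in PBS and 237, 290 and 402 in the GB2 tumors, with a log2 fold change of 1.49 (edgeR, standard error 0.44, adjusted p = 0.448). Of the 34 genes, 4 had groups apart with GB2 higher, among them Vav1 and Lcp2, and 2 with GB2 lower, against 8.61% and 6.68% of all genes tested. Lax1, a negative regulator of lymphocyte signalling, was also among the largest fitted differences, with a log2 fold change of 1.52 at 0 to 24 counts.

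Of 12 genes of costimulation and the CD2 family, 8 were tested, 7 were fitted higher and 1 lower in the GB2 tumors, and the median log2 fold change was 1.04. Cd48, the ligand of CD2 in mice, had 21, 77 and 22 counts in PBS and 169, 123 and 264 in the GB2 tumors. edgeR fitted a log2 fold change of 1.9 (standard error 0.59, unadjusted p of 0.0130, adjusted p = 0.483). Cd86, a ligand of CD28 on presenting cells, and Cd244a, a receptor for CD48, followed at 1.67 and 1.31 (edgeR, unadjusted p of 0.0345 and 0.0440, adjusted p of 0.676 and 0.705). These 3 of the 12 genes had groups apart with GB2 higher, where 8.61% of all genes tested did and 4.69% had an unadjusted p below 0.05 in that direction. Cd226, at 1.63, had 2 PBS tumors at 0 and an adjusted p of 0.809 (edgeR).

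Of 23 genes of T cell identity and state, 22 were in the table and 19 were tested, with 17 fitted higher and 2 lower in the GB2 tumors, a median of 0.66 and 0 called by edgeR. An unadjusted p below 0.05 with GB2 higher was found for 5, among them S1pr1, Thy1, Tcf7 and Il7r. Over all genes tested, 48.3% were fitted higher and 4.69% had such a p. S1pr1, the sphingosine-1-phosphate receptor that guides lymphocyte egress and is also strongly made by endothelium, had 334, 421 and 468 counts in PBS and 1029, 1233 and 1187 in the GB2 tumors, with a log2 fold change of 1.17 (edgeR, standard error 0.21, adjusted p = 0.190). Thy1, found on mouse T cells and on fibroblasts, had 315, 384 and 286 counts in PBS and 1216, 855 and 1215 in the GB2 tumors, with a log2 fold change of 1.40 (edgeR, standard error 0.25, adjusted p = 0.193). Neither followed the CD3 genes, since PBS tumor 3 held 468 S1pr1 and 286 Thy1 counts beside 0 counts of Cd3d, Cd3e and Cd3g. Tcf7 and Il7r had log2 fold changes of 0.98 and 1.52 (edgeR, adjusted p of 0.594 and 0.711), and Tox had 1.52 (0.788).

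Markers of other cell types were compared in the same tumors, beside these lists. All 9 macrophage markers had an unadjusted p below 0.05 with GB2 higher (edgeR, 0 called), against 4.69% of all genes tested, and their sum was 73.5, 89.2 and 64.2 CPM in PBS and 261, 255 and 352 CPM in the GB2 tumors. The same held for 7 of 7 fibroblast markers, 5 of 6 endothelial markers and all 5 of the neutrophil markers that were tested. The untested neutrophil marker, Ly6g, had 0 counts in all 6 tumors. Mmp9 alone held a mean of 6.75 of the 13.6 CPM of the neutrophil sum over the 6 tumors. Fibroblast markers summed to between 295 and 525 CPM in PBS and between 979 and 1350 CPM in the GB2 tumors. For endothelium these ranges were 52.2 to 69.0 CPM and 109 to 124 CPM, and for neutrophils 4.20 to 5.88 CPM and 20.8 to 23.6 CPM. Their part in the differences of Ptprc, Vav1, Lcp2, Cd48, Cd86, Thy1 and S1pr1 was not tested. The pattern of the 8 tested T cell receptor genes had an r of 0.984 over the 6 tumors with the log2 sum of the 7 receptor constant genes in the list and of 0.820 with that of the NK cell markers. With Ptprc it was 0.637, with tumor epithelium 0.596, with conventional dendritic cells of type 1 0.575 and with skin keratinocytes 0.447. It ran from 0.0552 to 0.206 with the macrophage, neutrophil, fibroblast, endothelial and lymph node sums, and was -0.62 with B cells and -0.54 with skeletal muscle. These values describe 6 points that share libraries and depth. The dendritic cell sum was mostly Cadm1, with a mean of 145 of 165 CPM over the 6 tumors, so its r describes mainly that gene. The NK cell sum was low, and Klrk1 alone held a mean of 0.245 of its 0.441 CPM.

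**Figure D5:**
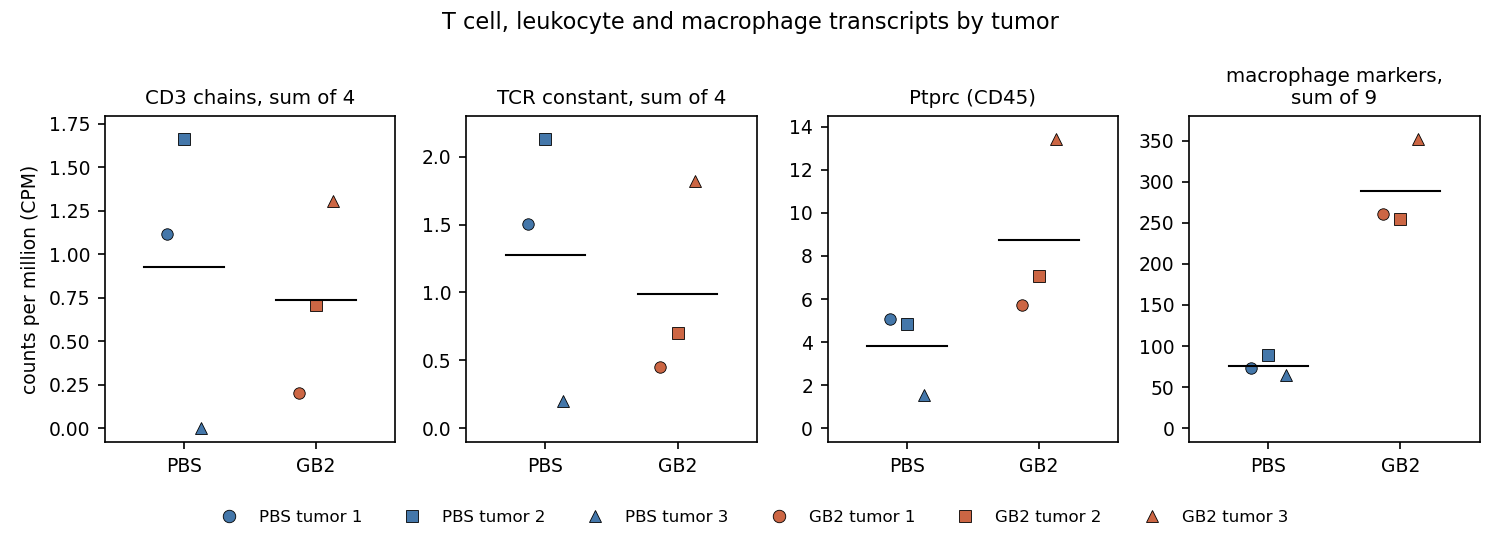
Summed CPM of the 4 CD3 genes, of 4 T cell receptor constant genes and of 9 macrophage markers, and CPM of Ptprc, in each tumor with the group mean as a bar. CD3 and constant genes overlap between the groups and are lowest in PBS tumor 3, whereas Ptprc and the macrophage sum lie higher in all 3 GB2 tumors.

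Of the other lymphocytes, NK cell markers summed to 0.170 to 0.610 CPM in PBS and 0.192 to 1.05 CPM in the GB2 tumors, with the defining marker Ncr1 at 3 counts in GB2 tumor 2 and 0 in the other 5 tumors, and Klri2 at 0 throughout. B cell markers summed to 0.575 to 1.32 CPM in PBS and 0.623 to 1.26 CPM in the GB2 tumors, Ms4a1 was below the floor in all 6 tumors, at 4, 5 and 4 counts in PBS and 0 in the GB2 tumors, and 0 of the 3 tested had an unadjusted p below 0.05 in edgeR. For conventional dendritic cells of type 1, which present antigen to CD8 T cells, this was 0 of 5, and Xcr1 had 3 counts, below the floor, in PBS tumor 3 and 0 in the other 5 tumors. Lymph node markers summed to 0.355 to 0.389 CPM in PBS and 0.512 to 1.13 CPM in the GB2 tumors. Markers of tissue around the tumor were present in both groups. Those of skin keratinocytes summed to 25.4 to 87.2 CPM in PBS and 69.6 to 121 CPM in the GB2 tumors. For skeletal muscle these ranges were 91.1 to 154 CPM and 191 to 221 CPM. Tumor epithelium markers summed to 2.60 to 6.10 CPM in PBS and 3.69 to 7.74 CPM in the GB2 tumors. An unadjusted p below 0.05 (edgeR) with GB2 higher was found for 0 of 6 keratinocyte and 2 of 6 muscle markers. It was also found for 1 of the 4 epithelium markers tested, Epcam. Of all genes tested, 4.69% had such a p.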

How the data were processed

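RNA-seq was compared between 3 PBS-treated and 3 GB2-treated MC38 tumors, grouped by the labels. Libraries were poly-A selected and dUTP stranded, and sequenced as paired ends. The submitters' processing notes list cutadapt 1.9, HISAT2 2.2.1, StringTie 2.1.6, DESeq2, edgeR and mm10, without roles. The authors deposited 1 table of estimated counts and FPKM values per tumor with gene positions. These deposited estimated counts are integers with no scaling between tumors. They pile up at multiples of 4 (7017 values of 4, 2984 of 3 and 2017 of 5), so a read pair was taken to weigh about 4 counts. Values of 1 (5446) and 2 (4996) were also common, so this weight is approximate. The deposited FPKM are scaled to transcript length and library total. Depth was about 16191101 to 20922514 read pairs per tumor, so that 1 pair weighs 0.0471 to 0.0676 CPM. No per-sample column was left out.

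The whole table was fitted with edgeR 4.0.16 (R 4.3.3). After filterByExpr (minimum count 10) and TMM scaling, glmQLFit and glmQLFTest compared the groups, with p-values adjusted by Benjamini-Hochberg. A call required at least a 2-fold change at an adjusted p below 0.05. The prior count of the log2 CPM was 2. Fold changes, standard errors and intervals are those of the fit. The biological coefficient of variation was 40.5%, and the smallest adjusted p was 0.166. The Cd8a minus Cd4 value was compared by an exact permutation test (R 4.3.3). Counting intervals are exact (Clopper-Pearson, 95%, scipy 1.17.1) on counts divided by 4.

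The 10 genes and all lists were chosen with earlier results of these data known. All 10 genes are named, and from each list of receptor constant, signalling, costimulation and T cell identity genes those with an unadjusted p below 0.05 and the 3 tested genes with the largest absolute log2 fold change, apart from 2 that are not reported here. Similar genes are the 10 with the highest Pearson's r over the 6 tumors. Marker lists cover NK, B, dendritic, macrophage, neutrophil, lymph node, endothelial, fibroblast, epithelial, keratinocyte and muscle cells. Il2 was not analysed here. The alternatives were other scalings, no filter and a minimum count of 40, counts divided by 4, limma 3.58.1 with voom or on log2(FPKM + 1) and log2(FPKM + 0.1), DESeq2 1.42.0, the tumor number as a replicate block, and leaving out each tumor. The scripts were tested on simulated data. Promoter windows come from RefSeq on GRCm38.p6, which held 7 windows of 6 of the 10 genes. No batch is stated in the sources used here.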

Additional observations from a re-analysis of the deposited data

How the results depend on the processing

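None of the 10 genes was called in any setting run, but not every setting tested all of them. With a minimum count of 40, or with counts divided by 4, only 2 were tested, Cd4 and Lck. Limma on log2(FPKM + 1) or log2(FPKM + 0.1) tested 6. Over all genes, every setting called 0 except DESeq2, with 385 (352 higher and 33 lower in the GB2 tumors). Cd3e, Cd8b1 and Lck kept their direction in every setting that gave them, with log2 fold changes of -2.498 to -0.32, -3.89 to -0.18 and 0.10 to 1.01. Cd247 and Cd28 were given by 5 settings each, with 2.17 to 3.81 and 0.55 to 1.65. Except without the filter, they passed the count minimum only through their GB2 tumors, so their direction there was set by the filter. The other 5 genes turned, and the cause was not tested. Leaving out each tumor in turn, Cd3d ran from -2.22 to 0.74, Cd3g from -0.96 to 0.46, Cd4 from -0.22 to 0.77, Cd8a from -1.48 to 0.996 and Cd2 from -1.86 to 0.40. Leaving out PBS tumor 1 reversed Cd4 (-0.12) and Cd2 (0.40), PBS tumor 2 Cd3d (0.74), Cd3g (0.46) and Cd8a (0.996), PBS tumor 3 Cd4 (-0.22), GB2 tumor 1 Cd3d (0.11), Cd3g (0.29) and Cd2 (0.08), and GB2 tumor 2 Cd3d (0.12) and Cd4 (-0.05). Cd3d was also reversed in limma-voom (0.32). Leaving out 1 tumor, between 1 and 3 of the 10 genes had groups apart, namely Cd247, joined by Cd4 when PBS tumor 2 was left out (2 genes), by Cd28 when GB2 tumor 2 was (2 genes), and by Cd3e and Cd8b1, both lower, when PBS tumor 3 was (3 genes). With 1 tumor fewer, 21.6% to 30.3% of all genes tested had groups apart. The Cd8a minus Cd4 difference then ran from -1.22 to 0.36, and its sign changed with PBS tumor 2 (0.26) or GB2 tumor 1 (0.36) left out. The labels do not state that the tumor numbers pair the tumors. Correlations of deviations between tumors of the same number were 0.03, 0.15 and -0.24. They were not compared with tumors of unlike number, so they cannot decide whether the numbers mark pairs. With the replicate block the Cd8a minus Cd4 difference was -0.33 (exact permutation p = 1, smallest possible 0.25), and edgeR called 0 genes, with 764 genes at least 2-fold changed at an unadjusted p below 0.05, against 913 with no block. Depth limits these values, as 38.3% of them lay below 3 read pairs, and so does the spread between tumors. For Cd8a the counting interval of the GB2 to PBS ratio was 0.397 to 1.04, while the edgeR interval was -3.33 to 2.11 in log2.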
